A study of Mus musculus with 6 samples.

Results

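The Cd209a dendritic cells described here, by label type 2 dendritic cells of the mouse liver, were selected on measured transcripts. A cell was a member if it had at least 1 unique molecular identifier (UMI, 1 counted RNA molecule) of Cd209a and of H2-Ab1, the beta chain of an MHC class II molecule, and none of Xcr1, Clec9a, Siglech (plasmacytoid dendritic cells), Clec4f and Vsig4 (Kupffer cells), Cd3e (T cells), Ncr1 (NK cells) or Cd79a (B cells). Of 11610 cells, 240 were members. They came from the livers of 3 wild-type (WT) and 3 SIRT7-/- (labelled SIRT7 KO) mice, 5-6 months old, whose genotype is the only difference that the labels give. SIRT7 is a nuclear NAD-dependent deacylase, and the study uses its loss as a model of non-alcoholic steatohepatitis (NASH) on a chow diet. The labels name neither the allele nor the sex of the mice, and nothing there separates effects of SIRT7 in these cells from those of the diseased liver. For each mouse 3000 hepatocytes and 3000 non-parenchymal cells were mixed into 1 droplet library with 3' counting, so the share of a cell type in a library is not its share in the liver.

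Conventional dendritic cells take up antigen in tissues and present it to T cells on MHC class II molecules. Type 1 dendritic cells carry Xcr1 and Clec9a, depend on the transcription factors Irf8 and Batf3 and are known for cross-presentation to CD8 T cells, whereas type 2 dendritic cells depend more on Irf4 and Klf4 and are known for priming CD4 T cells. Cd209a, a C-type lectin of the DC-SIGN family, marks a group of type 2 dendritic cells that share many genes with monocytes, and Flt3 is the growth factor receptor of the dendritic cell lineage. The liver also holds Kupffer cells, its resident macrophages, which express MHC class II genes too.

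The number of members differed widely between mice, with 10, 8 and 39 in WT mice 1 to 3 and 104, 63 and 16 in SIRT7-/- mice 1 to 3, in libraries of 552 to 5609 cells. Cd209a was found in 494 cells, and 470 of these also had H2-Ab1. The 8 genes required to be absent removed 230 of them, most often Clec4f (103 cells) and Vsig4 (97 cells), followed by Siglech (69 cells) and Clec9a (51 cells). The threshold lay at low counts: 101 members had 1 Cd209a UMI, 54 had 2 and 85 had 3 or more, up to 17. Just outside the rule lay 55 cells with H2-Ab1 and Flt3, no Cd209a and none of the 8 genes.

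Values are given in counts per 10000 UMIs of a cell (CP10K), averaged over the member cells of each mouse. Cd209a, on chromosome 8 (3743397 to 3748984, GRCm38), averaged 10.4, 10.7 and 10.5 CP10K in WT mice and 13.2, 12.4 and 9.21 CP10K in SIRT7-/- mice. H2-Ab1 averaged 91.1, 81.1 and 79.7 CP10K in WT mice and 75.4, 96.2 and 83.6 CP10K in SIRT7-/- mice. Both genes were part of the rule, so these levels are a description without a test, and their ranges overlapped between the genotypes. Members that had 1, 2, or 3 or more Cd209a UMIs had a median of 1692, 1893 and 2910 UMIs, so that the depth of a cell moved with its Cd209a count.

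Of the other CD209 family lectins, only Cd209d rose above the minimum level for testing, with 0.518, 0.242 and 1.16 CP10K in WT and 1.19, 0.732 and 1.05 CP10K in SIRT7-/- mice. Cd209d lies near Cd209a on chromosome 8 (3871824 to 3878555), and the similar sequences of the family make the split of reads between its members uncertain. Cd209b and Cd209e were found at up to 0.341 and 0.479 CP10K in a mouse, and Cd209f and Cd209g were not found. Cd209d averaged 0.0210 CP10K in type 1 dendritic cells, and it was higher in members in a limma comparison described below.

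Flt3, the third gene named for these cells and not used by the rule, was detected in 46 of 240 members (19.2%). In T cells, which should lack it, 0.545% had a Flt3 UMI, with a median depth of 2262 UMIs against 1942 UMIs in members. Every cell was then thinned to 1000 UMIs, which left 229 members and 810 T cells and removed 11 members that were too shallow. Flt3 was then detected in 8.73% of members and 0.123% of T cells. By mouse, its share of thinned members was highest in WT mouse 3 (23.7%) and 0% in WT mouse 2 and SIRT7-/- mouse 3. The order differed at full depth, which itself varied between mice. There Flt3 was detected in 3 of 10, 5 of 8 and 17 of 39 members of WT mice 1 to 3. In SIRT7-/- mice 1 to 3 it was detected in 9 of 104, 10 of 63 and 2 of 16 members. The thinned shares of Itgax (CD11c, 15.7% of members against 1.48% of T cells), Sirpa (19.2% against 3.33%), Clec10a (13.5% against 0 of 810 cells, which allows up to 0.370%) and Mgl2 (8.73% against 0.247%) also lay above those in T cells. Clec10a and Mgl2 are C-type lectins of type 2 dendritic cells and some macrophages.

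The members also carried genes shared with monocytes and macrophages. Ccr2, the chemokine receptor for monocyte exit from bone marrow, was detected in 45.4% of thinned members and 21.4% of T cells, Csf1r in 15.3% and 3.21%, and Fcgr1 in 5.68% and 0.617%. Ly6c2 was detected in 10.0% of thinned members, below its share of 14.9% in T cells. The regulators Klf4 (11.4% against 1.36%) and Irf4 (4.37% against 0.617%) and the dendritic cell factor Zbtb46 (3.93% against 0.247%) were found in few cells. Their pooled shares lay above the T cell level, but not in every mouse. After thinning, Irf4 was at 18.4% in WT mouse 3, 3.13% in SIRT7-/- mouse 1 and 0% in the others. Klf4 and Zbtb46 were then at 0% in WT mice 1 and 2 and SIRT7-/- mouse 3, with 10, 7 and 16 members of that depth. Fcgr1 was then at 0% in each WT mouse. At full depth Fcgr1 averaged 1.02, 0.00 and 0.0808 CP10K in WT and 0.359, 1.47 and 0.667 CP10K in SIRT7-/- members, so the groups overlapped. Of the 3 marker genes given for these cells, Cd209a and H2-Ab1 were required by the rule, and Flt3 alone was free to be absent. The name Cd209a dendritic cells is used here for the cells that met the rule.

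Genes of mature, migrating dendritic cells were detected in few members. Ccr7, the lymph node homing receptor, was detected in 1 of 240 members at full depth (0.417%) and in 0 of 229 thinned members, which allows a share of up to 1.31%, against 2.72% of thinned T cells. Fscn1, an actin bundler of mature dendritic cells, was found in 0 of 240 members, which allows up to 1.25%. Both limits are on cells with a UMI at this depth, not on cells that express the gene. Cd86, a costimulatory ligand, was detected in 3.49% of thinned members. Transcripts of dividing cells were present in some members. Mki67 was detected in 4.80% and Top2a in 8.30% of thinned members, both below the shares in T cells (9.14% and 12.96%).

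**Figure D1:**
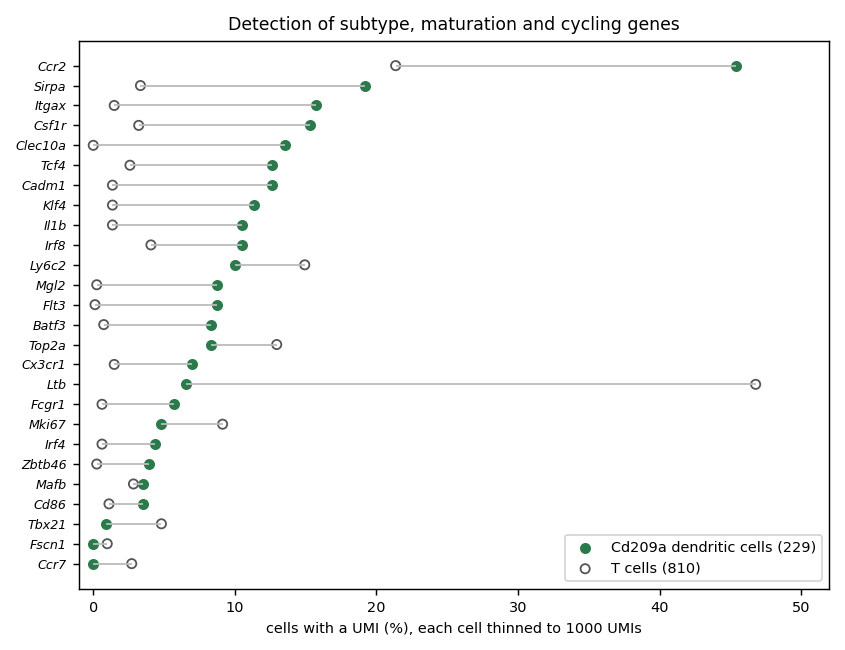
Share of cells (x axis, percent) with at least 1 UMI of each gene (y axis), after thinning each cell to 1000 UMIs, in Cd209a dendritic cells (filled, 229 cells) and in T cells (open, 810 cells). Flt3, Itgax, Sirpa, Clec10a and Mgl2 lie to the right of the T cell share, while Ly6c2, Ltb, Mki67, Top2a, Tbx21, Fscn1 and Ccr7 lie to its left.

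Levels of other genes were compared between members with more and fewer Cd209a UMIs and the cells just outside the rule. Clec10a averaged 1.10, 2.05 and 2.66 CP10K over members with 1, 2, and 3 or more Cd209a UMIs and 0.180 CP10K over the 55 cells outside. Klrd1, which encodes the lectin CD94, averaged 4.78, 4.38 and 7.32 CP10K in the 3 classes and 2.97 CP10K outside. Irf8 averaged 2.09, 2.41 and 1.09 CP10K in the 3 classes and 4.89 CP10K outside, and Cst3, a cystatin abundant in type 1 dendritic cells, averaged 33.7, 37.8 and 32.2 CP10K against 80.8 CP10K outside. The classes are cut from the gene that chose the members and pool cells of different mice, so they were not tested.

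The share of Cd209a dendritic cells did not separate the genotypes. Members made up 0.805%, 0.857% and 3.57% of all cells in WT mice 1 to 3 and 1.85%, 2.89% and 2.899% in SIRT7-/- mice 1 to 3. The highest and the lowest shares were both in WT mice, and the groups overlapped. The mean share was 1.74% ± 1.58 (SD, n = 3) in WT and 2.55% ± 0.601 (SD, n = 3) in SIRT7-/- mice, a difference of 0.806 percentage points (exact permutation test, two-sided, p = 0.4, where the smallest p that 3 mice against 3 allow is 0.1). Exact Clopper-Pearson 95% intervals, which cover counting error only, ran from 0.386% to 1.48% in WT mouse 1 and from 2.55% to 4.84% in WT mouse 3.

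Against other denominators the groups overlapped as well. Members were 3.15%, 2.38% and 4.35% of cells with Ptprc (CD45, on all leukocytes) in WT and 2.22%, 3.65% and 8.98% in SIRT7-/- mice (exact permutation p = 0.7). Of type 1 and type 2 dendritic cells together, members were 58.8%, 40.0% and 31.0% in WT and 49.5%, 48.5% and 55.2% in SIRT7-/- mice (exact permutation p = 0.5). When every cell was thinned to 1000 UMIs before the rule was applied, the shares of all cells were 0.704%, 0.751% and 3.88% in WT and 1.75%, 2.63% and 1.72% in SIRT7-/- mice (exact permutation p = 1.0). Thinning left 9859 of the cells.

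**Figure D2:**
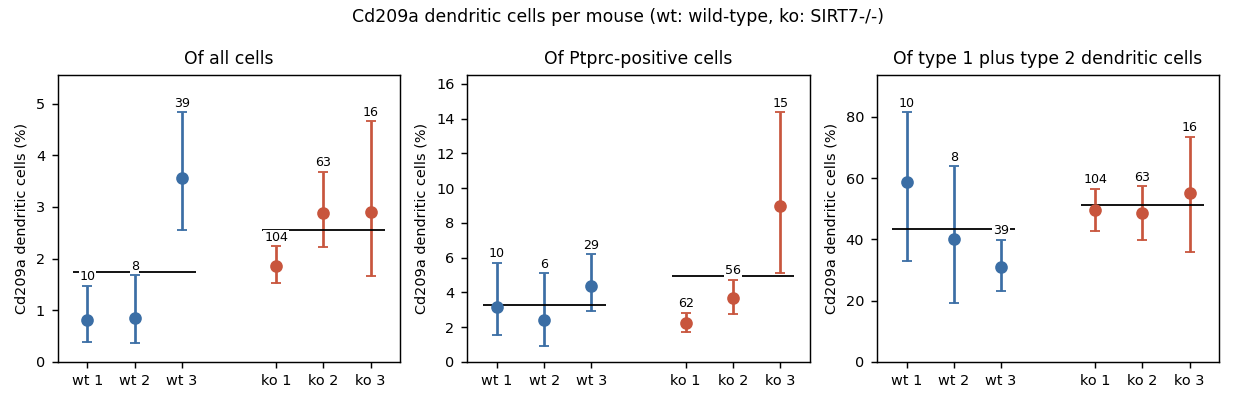
Cd209a dendritic cells as percent (y axes) of all cells, of Ptprc-positive cells and of type 1 plus type 2 dendritic cells in each WT (blue) and SIRT7-/- (red) mouse. Bars are exact 95% binomial intervals, numbers above them are member cells, and horizontal lines are means of the 3 mice. Each panel has overlapping genotypes, with WT mouse 3 at 3.57% of all cells and SIRT7-/- mouse 3 at 8.98% of Ptprc-positive cells.

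The members were next compared with type 1 dendritic cells of the same mice (292 cells with Xcr1 or Clec9a and with H2-Ab1, lacking Cd209a and the other genes of the rule). Members were higher in 8 of 13 tested monocyte genes and 13 of 24 type 2 dendritic cell genes, the latter including S100a4 and Clec10a. They were lower in 11 of 12 tested type 1 genes, among them Irf8. Klrd1, of the T and NK cell list, was also higher in members. WT mouse 3 and the 3 SIRT7-/- mice had at least 10 cells of both kinds, so the comparison rests mainly on SIRT7-/- livers. Genes used to choose either kind were left out. Type 1 dendritic cells had to carry Xcr1 or Clec9a and members to lack both, so the rules themselves favour lower type 1 genes in members. limma, fitted to log2 of the mouse mean plus 0.2 CP10K with the mice as pairs, called 250 of 5653 genes higher (4.42%) and 198 lower (3.5%) at a Benjamini-Hochberg adjusted p under 0.05. Without SIRT7-/- mouse 2 the calls fell from 448 to 223. Type 1 dendritic cells were sequenced deeper, with a median of 3071 UMIs against 1942 UMIs in members, and the part of depth in these differences was not tested.

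S100a4, a calcium-binding protein of motile cells, had the largest positive difference of the genes named. It averaged 9.65, 11.6, 12.96 and 9.60 CP10K in members of WT mouse 3 and SIRT7-/- mice 1 to 3, and 0.643, 0.681, 0.918 and 0.501 CP10K in their type 1 dendritic cells. No mouse overlapped, and the log2 difference was 3.66 ± 0.168 (SE, 4 mice, limma adjusted p = 2.85e-21). Klrd1 averaged 6.21, 4.63, 6.66 and 5.59 CP10K in members and 0.492, 0.690, 1.43 and 0.412 CP10K in type 1 dendritic cells, a log2 difference of 2.74 ± 0.201 (SE, limma adjusted p = 2.86e-14). Clec10a was at 3.55, 0.995, 1.95 and 1.43 CP10K in members and at or below 0.489 CP10K in type 1 dendritic cells (log2 difference 2.73, limma adjusted p = 3.86e-09).

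The other 9 genes named by rank were Ifitm6, S100a6, the chemokine Ccl9, the membrane proteins Tmem176a, Tmem176b, Ms4a4c and Cd300a, the transcription factor Pou2f2 and the lectin Clec4b1, with log2 differences from 2.01 to 2.67. Each was higher in members in 4 of 4 mice. From the lists, limma also called Mgl2 (log2 difference 2.35), Klf4 (1.35) and Irf4 (1.27) higher in members, the last at 1.25, 0.204, 0.248 and 0.1997 CP10K against at most 0.0754 CP10K. Irf4 was a low transcript with its highest level in WT mouse 3.

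Among genes lower in members, Irf8 was at 2.65, 1.79, 1.73 and 0.888 CP10K in members and at 18.5, 14.6, 13.2 and 13.6 CP10K in type 1 dendritic cells (log2 difference -3.02 ± 0.152, SE, limma adjusted p = 7.34e-20). Cst3 averaged 36.1, 32.7, 38.2 and 30.4 CP10K in members and 178, 169.7, 192 and 183 CP10K in type 1 dendritic cells (log2 difference -2.39 ± 0.0556, SE, limma adjusted p = 6.37e-33). Neither gene overlapped between the kinds of cells. Ppt1, a lysosomal thioesterase, and Tlr3, the endosomal receptor for double-stranded RNA, were lower by log2 differences of -3.31 and -3.30. Naaa, Cd24a, Rab7b, Id2, Cd36, Wdfy4, Cd81 and Dnase1l3 followed, with log2 differences from -2.87 to -1.82. Wdfy4 is known to be required for cross-presentation.

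By list, 13 of 24 tested type 2 dendritic cell genes were higher in members than in type 1 dendritic cells and 0 were lower, with a median log2 difference of 0.59 beside 0.04 over all genes tested. Of 12 tested type 1 genes, 11 were lower (median -2.39). Of 13 tested monocyte genes, 8 were higher, among them Ly6c2, Fn1, F13a1 and Plac8 (median 1.01). In the MHC class II pathway 5 of 12 genes were higher, by small amounts for the abundant ones: the log2 difference of Cd74, the invariant chain, was 0.36, and that of H2-Eb1 was 0.24. In the MHC class I pathway 0 of 15 tested genes were higher and 6 were lower, namely the peptide transporters Tap1 and Tap2, the immunoproteasome subunits Psmb8 and Psmb9, and the proteasome activators Psme1 and Psme2. Flt3 did not pass in this comparison (log2 difference -0.46 ± 0.251, SE, limma adjusted p = 0.335), with 2.03, 0.559, 0.773 and 0.351 CP10K in members and 1.83, 0.686, 1.63 and 0.781 CP10K in type 1 dendritic cells.

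A second comparison set members against 169 cells with Ly6c2 and Ccr2 but without Cd209a, S100a8 and the 8 genes, a rule meant for monocytes. Members were higher in 6 of 12 tested MHC class II pathway genes and lower in 5 of 12 tested monocyte genes. Members had to carry H2-Ab1 and the other cells did not, so the rule itself favours MHC class II genes in members, while the other cells had to carry the monocyte genes Ly6c2 and Ccr2. Genes of T cells were present among the cells that met the monocyte rule: Trbc2 and Cd3d were lower in members (log2 differences of members minus these cells of -2.68 and -2.59), so the other cells are named by their rule. In the same 4 mice, limma called 48 of 5859 genes higher (0.819%) and 84 lower (1.43%) in members, 132 in all and 86 without SIRT7-/- mouse 2. With cells that carried Cd3d, Cd3g or Trac left out, an alternative chosen after seeing the data, 205 genes were called, and Trbc2 and Ms4a4b no longer passed (log2 differences of members minus these cells of 0.92 and 0.99).

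H2-Oa, a chain of the modulator of MHC class II peptide loading, averaged 2.33, 1.99, 3.25 and 1.10 CP10K in members and at most 0.0693 CP10K in the Ly6c2 and Ccr2 cells (log2 difference 3.32 ± 0.446, SE, limma adjusted p = 3.20e-08). Ciita, the master regulator of MHC class II transcription, averaged 5.08, 4.36, 4.48 and 4.85 CP10K in members and 1.96, 0.439, 0.985 and 2.79 CP10K in the other cells (log2 difference 1.72, limma adjusted p = 5.55e-06). No mouse overlapped for either gene. Clec10a, H2-DMb2, Ccnd1, Cd9, Clec4b1, Gsn, Itgax, Ckb, Pak1 and Bcl11a were also higher in members, with log2 differences from 1.77 to 2.96. Flt3 was higher as well (log2 difference 1.74 ± 0.467, SE, limma adjusted p = 0.0199).

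S100a9 had the largest difference in that direction (log2 4.62), but the other cells were required to lack S100a8, its partner in a dimer of neutrophils and monocytes, and its values in members reached 60.2 CP10K in SIRT7-/- mouse 3, and it did not pass without WT mouse 3 (limma adjusted p = 0.328). Lysozyme, encoded by Lyz2, averaged 18.0, 30.9, 23.3 and 24.1 CP10K in members and 141, 140.1, 97.2 and 137 CP10K in the Ly6c2 and Ccr2 cells (log2 difference -2.42 ± 0.104, SE, limma adjusted p = 3.50e-16). Cebpb, a transcription factor of monocytes, averaged 1.87, 2.06, 3.86 and 1.89 CP10K in members and 12.7, 9.98, 13.9 and 23.9 CP10K in those cells. Gda, Fn1, Prdx5, Hp, Msrb1, Rras and F13a1 were lower too, with log2 differences from -2.13 to -1.69. Several transcripts that separated members from type 1 dendritic cells lay at like levels here: S100a4 averaged 10.96 ± 1.63 CP10K in members and 11.01 ± 2.96 CP10K (SD, n = 4) in the Ly6c2 and Ccr2 cells, with a log2 difference of 0.02 ± 0.153 (SE, limma adjusted p = 0.975).

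In the MHC class II list 1 gene, Ctss, was lower than in the Ly6c2 and Ccr2 cells (median 1.80 beside -0.005 over all genes), and Cd74, H2-Aa and H2-Eb1 did not pass, at limma adjusted p of 0.184, 0.203 and 0.231. Of 16 tested MHC class I pathway genes 0 were higher and 1, B2m, was lower (median 0.02). Of the monocyte genes 0 were higher (median -1.09). Interferon-stimulated genes were lower in 7 of 31 cases, among them Irf7, Ifitm3 and Bst2 (median -0.45). The lists were chosen with earlier results of these data known and have no test of their own.

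**Figure D3:**
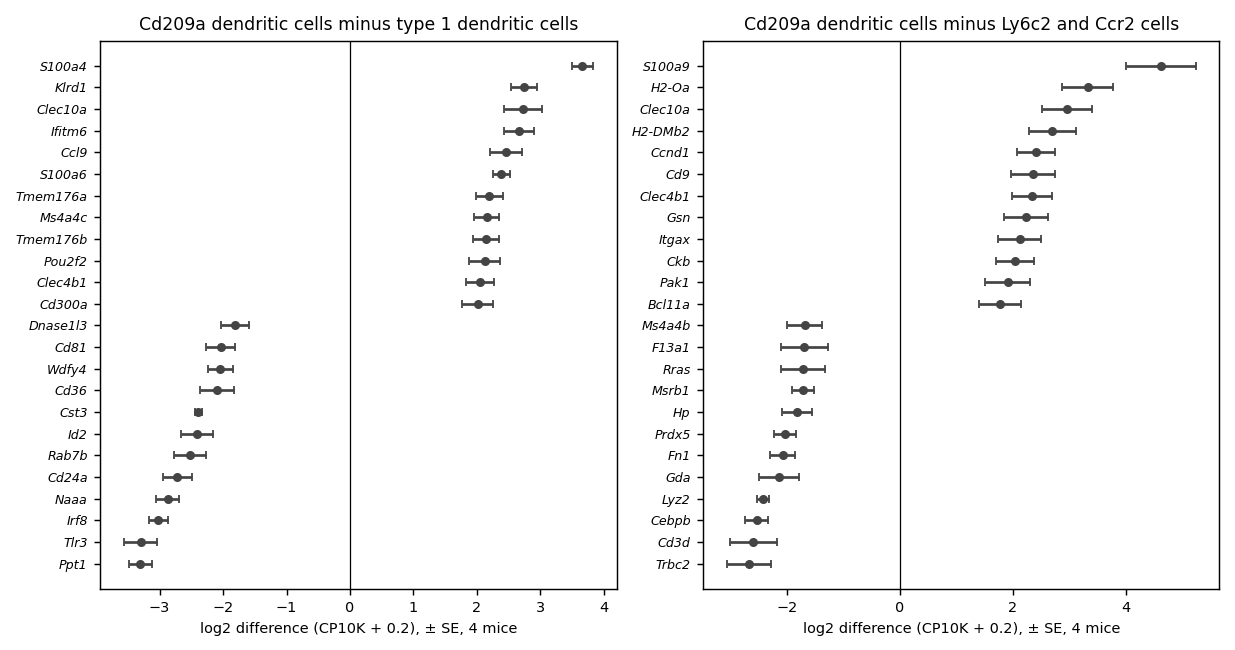
Log2 difference (x axes, CP10K plus 0.2, with SE over 4 mice) of the genes named by rank (y axes), for members minus type 1 dendritic cells (left) and members minus Ly6c2 and Ccr2 cells (right). S100a4 leads on the left at 3.66, Ppt1, Tlr3 and Irf8 lie lowest at -3.31, -3.30 and -3.02, and Clec10a and Clec4b1 lie above 0 in both panels.

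The genotypes were then compared within the members. Depth varied between mice: the median member had 4989, 4008 and 2382 UMIs in WT mice and 1446, 2207 and 6580 UMIs in SIRT7-/- mice, and the sums over members ran from 31580 to 171346 UMIs. The mean of the medians was 3793 UMIs in WT and 3411 UMIs in SIRT7-/- mice (exact permutation p = 0.8). WT mouse 2, with 8 members, was below the minimum of 10 cells and was left out of the main fit, which therefore set 2 WT against 3 SIRT7-/- mice. Of 13 barcodes shared between libraries, 1 belonged to a member. The limma p-values rest on the spread between mice, moderated with that of all genes tested. They do not measure the spread of a gene's own few mice alone.

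Sirt7, on chromosome 11 (120618372 to 120625240), was low in the cells as a whole from SIRT7-/- mice. Outside the members it averaged 0.718, 0.515 and 0.529 CP10K in WT and 0.100, 0.0807 and 0.122 CP10K in SIRT7-/- mice. Within the members it averaged 0.766, 0.168 and 1.01 CP10K in WT and 0.0920, 0.105 and 0.683 CP10K in SIRT7-/- mice, so the groups overlapped (log2 change -1.34 ± 0.525, SE, limma adjusted p = 0.662). The value of SIRT7-/- mouse 3 rests on 8 UMIs in 6 of its 16 members.

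Pcyt2, which makes CDP-ethanolamine for phospholipid synthesis, lies 435 bases from Sirt7 (120610087 to 120617936). It averaged 0.408, 0.609 and 1.61 CP10K in members of WT mice and 0.154, 0.00 and 0.00 CP10K in those of SIRT7-/- mice. The groups did not overlap, with 18 UMIs in WT and 2 UMIs in SIRT7-/- members, a ratio of 0.0463 of SIRT7-/- to WT (95% counting interval 0.00520 to 0.193). Counting intervals and limits for genes, here and below, treat each UMI as independent and leave out the spread between cells and mice. In the fit over all genes Pcyt2 did not pass (log2 change -2.12 ± 0.562, SE, limma adjusted p = 0.237). In all other cells Pcyt2 averaged 5.09, 3.71 and 1.58 CP10K in WT and 0.0844, 0.0631 and 0.0983 CP10K in SIRT7-/- mice.

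Of 5648 genes tested, limma called 7 higher (0.124%) and 1 lower (0.0177%) in SIRT7-/- members, with 155 higher and 198 lower at an unadjusted p under 0.05. The genes that rose were the chemokine Ccl5, the 3 complement genes C1qa, C1qb and C1qc, the protease gene Ctsd, Basp1 and the antisense transcript BC018473. The gene that fell was Maob. Naming a called gene required no overlap between the fitted mice of the genotypes, so that trait was set by the choice. The share of all tested genes without overlap is not given here. When WT mouse 2 was included, 5 of 5712 genes were called higher (0.0875%) and 9 lower (0.158%), and 6 genes were called in both fits. The number of calls depended on single mice: 56 genes without WT mouse 3, 24 without SIRT7-/- mouse 1 and 1, Ccl5, without SIRT7-/- mouse 3, where the limma adjusted p of the other 7 genes rose to between 0.176 and 0.295. Means of logged cell values gave 18 calls, 0 higher and 18 lower. Summed UMIs fitted with voom gave 0 calls, with 40 genes higher and 253 lower at an unadjusted p under 0.05.

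Ccl5, a chemokine that attracts T cells and is itself abundant in T and NK cells, was at 0 in the members of all WT mice and at 6.60, 5.71 and 1.47 CP10K in those of SIRT7-/- mice 1 to 3. It lies on chromosome 11 (83525778 to 83530518). The 250 UMIs in SIRT7-/- members came from 25 of 183 cells. Against a floor of 3 counts over the WT members, the pooled Ccl5 level was 34.7-fold higher. The lower 95% counting limit of the ratio to WT was 28.0. Ccl5 had a fitted log2 change of 4.34 ± 0.515 (SE, which depends on the pseudocount, limma adjusted p = 0.000465). It did not pass without WT mouse 1 (limma adjusted p = 0.13) or WT mouse 3 (limma adjusted p = 0.064). Of those 25 cells, 16 also carried at least 1 of 10 T or NK cell genes (Cd3d, Cd3g, Trac, Trbc2, Lck, Nkg7, Klrb1c, Gzma, Gzmb or Xcl1). Without the 27 members that carried such a gene, an alternative chosen after seeing the data, the log2 change of Ccl5 was 1.97 (limma adjusted p = 0.32). In T cells Ccl5 averaged 17.8, 27.7 and 18.0 CP10K in WT and 30.7, 42.6 and 29.6 CP10K in SIRT7-/- mice. All 14 genes of the T and NK cell list had a UMI in members. Without Ccl5, itself listed, they summed to 7.85, 6.86 and 7.60 CP10K in WT and 8.11, 14.4 and 6.94 CP10K in SIRT7-/- mice. These sums overlapped, but much of each was Klrd1. Klrd1 was at 6.825, 5.125 and 6.21 CP10K in WT and 4.63, 6.66 and 5.59 CP10K in SIRT7-/- members. Of 6 tested genes of the list, Ccl5 included, 5 had a positive log2 change (median 1.31), and Klrd1 was the 1 negative.

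The 3 genes of complement C1q, which macrophages make in quantity, lie next to each other on chromosome 4 (136880129 to 136898803). C1qa averaged 0.00, 0.168 and 0.0714 CP10K in WT and 1.29, 1.68 and 2.44 CP10K in SIRT7-/- members (log2 change 3.06 ± 0.463, SE, limma adjusted p = 0.00231). C1qb averaged 0.00, 0.00 and 0.403 CP10K in WT and 2.57, 1.57 and 2.85 CP10K in SIRT7-/- members, and C1qc 0.00, 0.00 and 0.0881 CP10K in WT and 1.43, 1.25 and 1.69 CP10K in SIRT7-/- members. No mouse overlapped for any of the 3. Few cells carried them: the 40 C1qa UMIs of SIRT7-/- mouse 3 were in 1 cell, and the 104 in all SIRT7-/- members were in 23 of 183 cells. Over all members the C1qa level was 21.6 times as high in SIRT7-/- as in WT, with a 95% counting interval of 5.84 to 181, since WT members held 2 UMIs, and for C1qc, with 1 UMI in WT, 30.8 times as high (5.36 to 1233). Both intervals leave out the spread between cells and mice, although few cells held most of these UMIs.

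The Kupffer cell marker list holds the 3 C1q genes itself. Of its 12 genes 11 had a UMI in members, Folr2 being at 0. The 9 genes other than C1q summed to 1.34, 3.49 and 2.79 CP10K in WT and 4.62, 3.60 and 3.91 CP10K in SIRT7-/- mice, so that WT mouse 2 lay close to SIRT7-/- mouse 2, and the 3 C1q genes summed to at most 0.562 CP10K in WT and to 5.28, 4.50 and 6.99 CP10K in SIRT7-/- mice. Cells with both Clec4f and Vsig4 numbered 38, 28 and 134 in WT and 2217, 458 and 60 in SIRT7-/- libraries, and their C1qa level was between 35.0 and 56.2 CP10K in each mouse. In T cells C1qa averaged 0.0265, 0.0389 and 0.600 CP10K in WT and 1.92, 1.45 and 0.00 CP10K in SIRT7-/- mice. When the 58 members with Timd4, Cd5l, Marco, Folr2, Slc40a1, Cd163 or Adgre1 were left out, a choice made after seeing the data, limma called 0 genes (149 higher and 181 lower at an unadjusted p under 0.05), and the log2 changes were 0.88 for C1qa, 1.43 for C1qb and 1.52 for C1qc. Those of genes outside the C1q group were 3.60 for Ccl5, 2.41 for BC018473, 2.13 for Basp1, 1.57 for Ctsd and -2.40 for Maob, also without a call. The members left out were 3 of 10, 3 of 8 and 8 of 39 in WT and 28 of 104, 11 of 63 and 5 of 16 in SIRT7-/- mice. That choice left 7 members in WT mouse 1. What part Kupffer cell RNA has in the C1q values was not tested.

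Ctsd, the lysosomal protease cathepsin D, averaged 0.187, 0.221 and 0.174 CP10K in WT and 2.05, 1.57 and 1.04 CP10K in SIRT7-/- members, with a fitted log2 change of 2.17 ± 0.445 (SE, limma adjusted p = 0.0429). Its groups did not overlap. It missed the threshold with all 6 mice in the fit (limma adjusted p = 0.0504) and without SIRT7-/- mouse 1 (0.152) or 2 (0.171). Ctsd was also higher in cells with Clec4f and Vsig4 from SIRT7-/- mice (30.9, 27.1 and 26.4 CP10K, against 12.2, 9.67 and 10.8 CP10K in WT), while in T cells it was at 2.22, 3.86 and 2.99 CP10K in WT and 3.19, 3.52 and 2.01 CP10K in SIRT7-/- mice. In type 1 dendritic cells it averaged 0.737, 0.0924 and 0.323 CP10K in WT and 1.49, 1.74 and 2.07 CP10K in SIRT7-/- mice. Of 18 tested genes of the lysosome list, Ctsd was the 1 called, and the median log2 change was 0.24 beside -0.04 over all genes.

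Basp1, a membrane-bound signalling protein, averaged 0.00, 0.471 and 0.118 CP10K in WT and 0.709, 1.81 and 1.43 CP10K in SIRT7-/- members (log2 change 2.51 ± 0.494, SE, limma adjusted p = 0.0282). The ratio of the pooled levels was 8.05, with a 95% counting interval of 2.62 to 40.2 on 3 and 58 UMIs. With all 6 mice it did not pass (limma adjusted p = 0.139), nor without SIRT7-/- mouse 2 (limma adjusted p = 0.175). In type 1 dendritic cells Basp1 overlapped between the groups (0.553, 3.39 and 0.752 CP10K in WT, 0.701, 1.48 and 3.38 CP10K in SIRT7-/- mice). In cells with Clec4f and Vsig4 it did not (1.51, 1.47 and 1.09 against 2.11, 2.28 and 2.04 CP10K), nor in T cells (0.0814, 0.00 and 0.191 against 0.192, 0.564 and 0.856 CP10K). BC018473, annotated as an antisense transcript on chromosome 11 (116752167 to 116759373), starts 3.87 Mb from the start of Sirt7. It had 0 UMIs in WT members and 23, 11 and 24 UMIs in members of SIRT7-/- mice 1 to 3, or 1.30, 0.652 and 1.34 CP10K. The pooled level was 8.05-fold higher against the floor of 3 counts over the WT members, with a lower 95% counting limit of 6.34. BC018473 passed (limma adjusted p = 0.015), but not without SIRT7-/- mouse 1 (limma adjusted p = 0.0672). The same direction was seen in T cells (0.00 CP10K in each WT mouse, and 1.01, 2.29 and 2.60 CP10K in SIRT7-/- mice) and in cells with Clec4f and Vsig4 (0.00 CP10K in each WT mouse, and 2.40, 1.89 and 3.32 CP10K in SIRT7-/- mice). In type 1 dendritic cells BC018473 was at 0.00 CP10K in each WT mouse and at 0.390, 0.195 and 0.00 CP10K in SIRT7-/- mice. How the counting used strand is not given in the sources used here.

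Maob, the mitochondrial enzyme monoamine oxidase B, averaged 1.23, 1.39 and 1.26 CP10K in WT and 0.149, 0.0416 and 0.00 CP10K in SIRT7-/- members. All WT mice lay above all SIRT7-/- mice, and the log2 change was -2.49 ± 0.489 (SE, limma adjusted p = 0.0282). The SIRT7-/- level was 0.0595 of the WT level, with a 95% counting interval of 0.0114 to 0.199, on 3 and 21 UMIs. It passed with all 6 mice (limma adjusted p = 0.0171) but not without WT mouse 1 (0.193), WT mouse 3 (0.0506) or SIRT7-/- mouse 2 (0.0839). In T cells Maob averaged 1.36, 1.33 and 0.832 CP10K in WT and 0.638, 0.249 and 0.375 CP10K in SIRT7-/- mice. In cells with Clec4f and Vsig4 the groups did not overlap either (0.983, 0.734 and 0.865 against 0.350, 0.120 and 0.610 CP10K). In type 1 dendritic cells they overlapped (0.531, 0.207 and 0.363 against 0.408, 0.0633 and 0.199 CP10K).

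No other gene passed as lower, and the next 4 by unadjusted p were Sult3a1, Car3, Sult2a1 and Sqle. Sult3a1 and Sult2a1, sulfotransferases of hepatocytes, were at 6.95, 11.6 and 2.31 CP10K and at 6.72, 13.8 and 2.44 CP10K in WT members, and at most at 1.38 and 1.11 CP10K in SIRT7-/- members (limma adjusted p = 0.0838 and 0.102). Car3, a carbonic anhydrase of hepatocytes and fat cells, was at 3.63, 7.39 and 5.68 CP10K in WT and 1.73, 0.245 and 0.630 CP10K in SIRT7-/- members (limma adjusted p = 0.102). With all 6 mice Car3 and Sult3a1 passed, at limma adjusted p of 0.00429 and 0.0241. All 30 hepatocyte markers had a UMI in members, with sums of 290.4, 347, and 148 CP10K in WT and 194, 36.0 and 99.8 CP10K in SIRT7-/- mice, and 26 of 29 tested markers had a negative log2 change (median -1.29). With all 6 mice 28 of 29 were negative (median -1.58), and Ass1, Car3, Serpina1a and Serpina1c were called lower. In T cells Car3 averaged 8.03, 8.50 and 6.91 CP10K in WT and 2.87, 1.13 and 1.65 CP10K in SIRT7-/- mice. The part of hepatocyte RNA in these members was not tested.

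Sqle, squalene epoxidase of cholesterol synthesis, was at 1.997, 1.42 and 1.66 CP10K in WT and 0.250, 0.481 and 0.419 CP10K in SIRT7-/- members (log2 change -1.81 ± 0.438, SE, limma adjusted p = 0.151). The groups did not overlap. T cells had lower Sqle levels, and there the groups overlapped. They were 0.110, 0.181 and 0.236 CP10K in WT and 0.136, 0.0782 and 0.554 CP10K in SIRT7-/- mice. In type 1 dendritic cells the groups overlapped too (0.845, 0.172 and 0.462 against 0.308, 0.238 and 0.214 CP10K). In cells with Clec4f and Vsig4 they did not (0.306, 0.215 and 0.278 CP10K in WT, 0.0423, 0.0558 and 0.160 CP10K in SIRT7-/- mice).

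**Figure D4:**
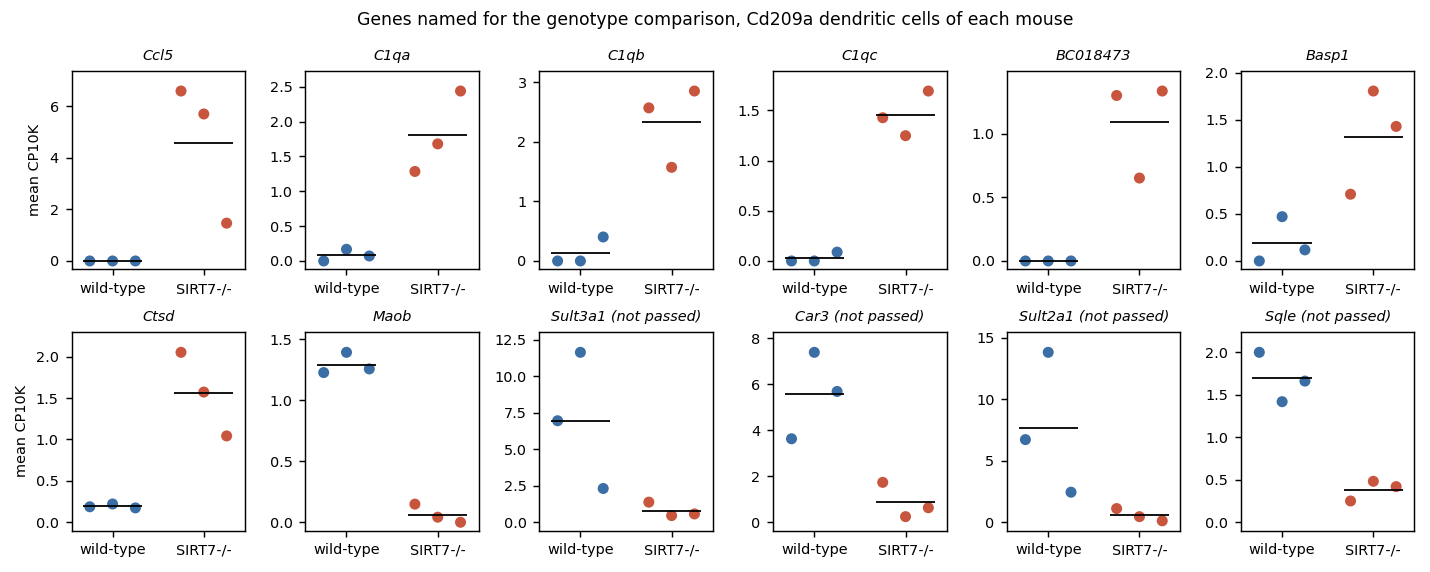
Mean CP10K (y axes, linear) of the 12 genes named for the genotype comparison in the Cd209a dendritic cells of each WT (blue) and SIRT7-/- (red) mouse, with lines at the means of 3 mice. The genotypes do not overlap in any panel, which the naming of the first 8 genes required in the fitted mice. The first 8 genes passed the limma test in 2 WT and 3 SIRT7-/- mice, and the 4 marked as not passed did not.

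Cd209a and H2-Ab1 were not tested for genotype, and of other genes abundant in or named for these cells Flt3, Clec10a, S100a4 and Klrd1 did not pass. Flt3 was at 0.732, 1.58 and 2.03 CP10K in WT and 0.559, 0.773 and 0.351 CP10K in SIRT7-/- members (log2 change -0.96 ± 0.471, SE, limma adjusted p = 0.805). Clec10a was at 2.51, 4.35 and 3.55 CP10K in WT and 0.995, 1.95 and 1.43 CP10K in SIRT7-/- members, without overlap, and it did not pass (log2 change -0.99 ± 0.368, SE, limma adjusted p = 0.628). S100a4 and Klrd1 had log2 changes of 0.01 ± 0.259 and -0.22 ± 0.286 (SE). Of 24 tested type 2 dendritic cell genes 0 were called, 13 had a positive and 11 a negative log2 change, and the median was 0.03.

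The lists of dendritic cell function gave few calls. Of 12 tested genes of the MHC class II pathway 0 were called (median log2 change -0.01), and Cd74 was at 269.9, 226 and 217 CP10K in WT and 175, 211 and 308 CP10K in SIRT7-/- members. Of 14 MHC class I, 12 maturation and migration, 14 pattern recognition and 6 Fc receptor genes tested, 0 were called. Among cytokines and chemokines Ccl5 was the 1 called of 12 tested, while Ccl9 (4.08, 3.40 and 3.67 CP10K in WT, 3.08, 3.02 and 2.55 CP10K in SIRT7-/-) and Ccl6 did not pass, and Il6, Il10 and Il12b had no UMI in a member.

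Among lists of cell state, 0 of 30 tested interferon-stimulated genes were called, with 21 positive changes and a median of 0.26. Of 20 ER chaperone and unfolded protein response genes tested, 0 were called, 17 had a negative change and the median was -0.40; Hspa5, the main ER chaperone, was at 6.00, 10.4 and 4.50 CP10K in WT and 3.95, 3.01 and 8.62 CP10K in SIRT7-/- members. Of 15 S phase and 17 G2/M phase genes 0 were called, with medians of 0.59 and 0.40, and Top2a was at 0.00, 0.00 and 1.596 CP10K in WT and 1.17, 1.48 and 1.49 CP10K in SIRT7-/- members. Of 8 integrated stress response, 16 immediate-early and 10 lipid handling genes tested, 0 were called, nor were any of 9 type 1 dendritic cell, 7 plasmacytoid dendritic cell, 13 monocyte and 3 sirtuin genes. The all-gene median of -0.04 applies beside each of these values.

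Neutrophil genes were found in members of both genotypes, with higher summed levels in SIRT7-/- mice. All 13 listed genes had a UMI in a member, and their sum was 0.589, 1.21 and 4.61 CP10K in WT and 42.9, 12.8 and 167 CP10K in SIRT7-/- members. The level in SIRT7-/- mouse 3 rested on 1 of its 16 members. At least 1 of S100a8, S100a9, Retnlg, Ly6g, Camp, Ngp or Ltf was found in 35 of 104 members of SIRT7-/- mouse 1. The same held for 2 of 63 members of SIRT7-/- mouse 2, and for 0 of 10, 2 of 8 and 1 of 39 in WT mice 1 to 3. None of the 7 tested genes passed, and 7 of 7 had a positive log2 change (median 3.38): S100a8 was at 0.00, 0.00 and 1.21 CP10K in WT and 16.6, 5.12 and 68.3 CP10K in SIRT7-/- members (log2 change 5.10 ± 1.65, SE, limma adjusted p = 0.783). Markers of B and plasma cells and of endothelial cells summed to at most 3.12 and 4.13 CP10K in a mouse, with Ms4a1, Pax5 and Stab2 at 0. Those of basophils and mast cells, of stellate cells and cholangiocytes and of red cells reached 0.312, 4.61 and 0.677 CP10K, and 0 genes of these lists were called.

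**Figure D5:**
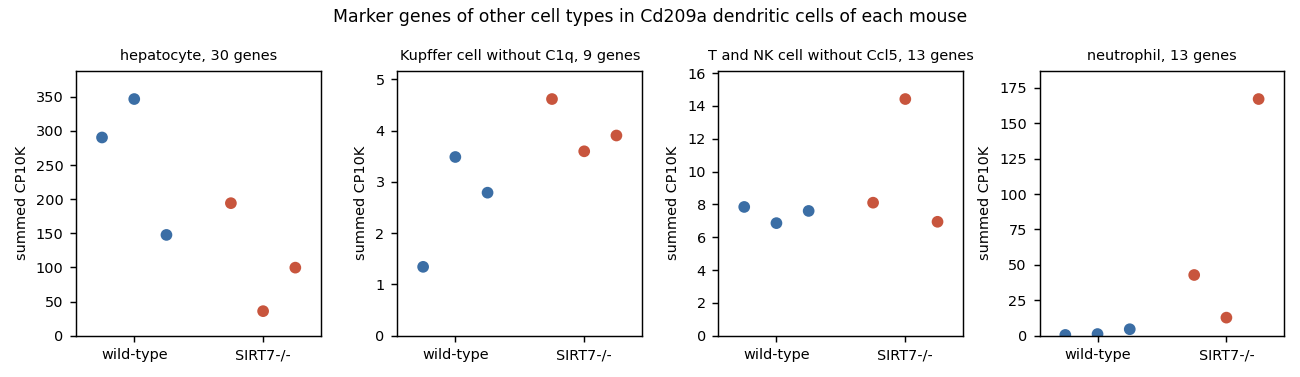
Summed CP10K (y axes, linear, from 0) of marker lists of other cell types in the Cd209a dendritic cells of each WT (blue) and SIRT7-/- (red) mouse. Genes called for genotype (C1qa, C1qb, C1qc and Ccl5) are left out of the Kupffer and T and NK cell sums. Neutrophil sums are higher in each SIRT7-/- mouse than in any WT mouse, and Kupffer sums lie at 3.49 in WT mouse 2 and 3.60 in SIRT7-/- mouse 2. T and NK cell sums, much of them Klrd1, overlap, and hepatocyte sums reach 347 in WT mouse 2.

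Whether genotype acted differently on members and type 1 dendritic cells could not be tested at 10 cells of both kinds per mouse, since WT mouse 3 alone of the WT mice had them. At a minimum of 5 cells, chosen after seeing the data, limma on the difference within each mouse called 0 of 5673 genes, with 140 higher and 159 lower at an unadjusted p under 0.05. Ccl5 in type 1 dendritic cells was at 0.00, 8.69 and 0.791 CP10K in WT and 4.75, 1.10 and 0.0847 CP10K in SIRT7-/- mice, so the groups overlapped there. C1qa in type 1 dendritic cells was at 0.401, 0.00 and 0.915 CP10K in WT and 4.63, 7.03 and 4.22 CP10K in SIRT7-/- mice, without overlap.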

How the data were processed

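As deposited by the authors, the table holds natural log values, ln(CP10K + 1), for 16623 genes. Per the labels, reads were processed with Cell Ranger 6.0.0 on mm10, and per the paper cells with few genes or many mitochondrial reads were removed. Undoing the log gave whole UMIs for all 12961041 values within 0.02. The barcode ending named the mouse, with 0 cells unmapped. Doublets were not called; members of over 3 times the median UMIs were left out in an alternative.

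Members, comparison cells, 29 gene lists and named genes were chosen with earlier results of these data known. Mouse means plus 0.2 CP10K were taken as log2, and genes of at least 0.2 CP10K were tested with limma 3.58.1 (R 4.3.3; mean-variance trend, robust prior). Tests were two-sided, p-values were adjusted after Benjamini and Hochberg over all genes tested, and the threshold was 0.05; genes of the rule were left out. Genes named are those past the threshold with at least 0.5 CP10K (1 CP10K between kinds of cells) and, for genotype, no overlap, up to 12 a direction, filled to 5 by unadjusted p; up to 4 highest genes of a list were also eligible. Shares were compared with exact permutation tests (scipy 1.17.1). limma was tested on simulated data. Positions are from GENCODE M21.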

Additional observations from a re-analysis of the deposited data

How the results depend on the processing

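Few cells and mice set the limits: 57 WT members, with WT mouse 2 outside the main fit. The 8 genotype calls became 5 at a pseudocount of 0.05 CP10K, 41 with no filter on low values, 1 at a minimum of 1 CP10K, 18 with means of logged values, 0 with voom, 1 with mice weighted by cells, 14 with all mice, 29 with at least 2 Cd209a UMIs, and 0 in members with Flt3 (51 higher and 128 lower at an unadjusted p under 0.05). Leaving out each mouse gave 1 to 56, and with all mice 1 to 49 (33 without WT mouse 3, 49 without SIRT7-/- mouse 1, 1 without SIRT7-/- mouse 3). Added after seeing the data, all mice gave 1 with voom and 13 without T or NK cell genes, and dropping members with Kupffer genes gave 0 with and without WT mouse 2 (142 higher and 183 lower at an unadjusted p under 0.05 with it). The median log2 change of all genes was -0.17 with voom and -0.04 otherwise in the main analysis. The causes were not tested. At a minimum of 1 CP10K, 1383 genes were tested, and C1qc, BC018473, Basp1 and Maob were not among them. C1qa, C1qb and Ctsd kept their log2 changes there, with limma adjusted p of 0.833, 0.383 and 0.833. In the same order, the 5 list genes called became 3, 15, 1, 10, 0, 1, 8, 11 and 0, with 1 to 15 on leaving out each mouse, 1 with voom on all mice, 3 without T or NK cell genes and 8 with all mice, and 0 without Kupffer genes. Of values for named genes, 0 changed direction between genotypes.

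Members against type 1 dendritic cells gave 223 to 412 genes when a mouse was left out (main 448; 223 without SIRT7-/- mouse 2). Against Ly6c2 and Ccr2 cells, 132 genes became 232 with voom, 86 to 128 when a mouse was left out (86 without SIRT7-/- mouse 2) and 205 without T cell genes, where Trbc2 (0.92) and Ms4a4b (0.99) turned direction. The share of all cells was higher in SIRT7-/- mice by 0.806 percentage points, by 0.254 after thinning and by 0.337 to 1.72 when a mouse was left out; the exact test cannot reach the threshold with so few mice.

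Replicate numbers did not pair the mice: same-numbered mice correlated at -0.0279, -0.0708 and 0.0044 in their deviations. The replicate block gave 26 genotype calls and 13 list genes, and 85 and 29 with all mice.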
